A study of Mus musculus with 21 samples.

Results

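The sodium-potassium pump genes described here were Fxyd1, Fxyd5 and Fxyd6, which encode small regulatory proteins of the FXYD family, and Atp1b1, Atp1b2, Atp1b3 and Atp1b4, which encode the beta subunit family. They were 7 of the 40853 genes in the deposited count table, taken by symbol, and all 7 passed the filter on low counts that left 16129 genes tested. The members were chosen by their counts per library, normalized by size factors and set side by side over the 3 groups, with the training group results of these libraries known. The group differences below are therefore descriptions, and the rule had no threshold.

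RNA came from the medial belly of the gastrocnemius, a calf muscle, of 21 female C57BL/6NJ mice that were 10 weeks old at the start, and each mouse gave 1 poly(A)-selected library. The Inactive group (7 mice) stayed in standard cages, the Active group (7 mice) ran on a treadmill for 6 weeks, and the Activity Reduction group (7 mice) ran for 4 weeks and then rested for 2 weeks. Training was on 5 days a week in sessions of up to 40 min, which opened with a slow warm-up and went on at about 70% of each animal's top speed. All 3 groups, the Inactive group included, ran a maximal test 48 to 72 h before the muscle was taken, and all were fasted for some hours before, so no library shows a mouse that never ran.

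The sodium-potassium pump moves sodium out of the cell and potassium in at the cost of ATP. In muscle it restores the ion gradients that action potentials run down, and its content and activity are known to change with training and inactivity. A catalytic subunit carries the ions, a beta subunit is needed for folding and delivery to the surface membrane, and an FXYD protein tunes the affinity for sodium or potassium. Phospholemman, the product of Fxyd1, is the main FXYD protein of heart and skeletal muscle and a target of protein kinases A and C. Beta m, the product of Atp1b4, is a muscle protein that in placental mammals lies in the nuclear membrane and is not a working pump subunit.

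The FXYD genes are named for a short signature in their extracellular part, and it is shown here because it is the sequence that defines the family. In the reference transcripts (GRCm39, GENCODE vM39), each of the 7 Fxyd genes had exactly 1 in-frame match to the signature, while the 4 beta genes had none. The coding bases of the 3 members follow with the 15 bases of the signature in capitals and 15 bases on either side.
Fxyd1: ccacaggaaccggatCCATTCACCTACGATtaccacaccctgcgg
Fxyd5: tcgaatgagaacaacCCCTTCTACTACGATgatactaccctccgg
Fxyd6: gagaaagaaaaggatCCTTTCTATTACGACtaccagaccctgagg

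The signature began at codon 28 of 92 in Fxyd1, codon 134 of 178 in Fxyd5 and codon 28 of 94 in Fxyd6. Over these 45 bases, Fxyd1 and Fxyd6 shared 31 (68.9%), Fxyd5 and Fxyd6 shared 28 (62.2%), and Fxyd1 and Fxyd5 shared 26 (57.8%). In all 7 Fxyd genes an exon ended after base 13 of the signature, so the same codon was split by an intron. In Fxyd1, on the minus strand, the stretch covered chr7:30753318-30753345 and chr7:30752883-30752899. In Fxyd6, on the plus strand, it covered chr9:45301943-45301970 and chr9:45302075-45302091.

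Fxyd1 lies at chr7:30751092-30756677 and Fxyd5 at chr7:30732147-30741906, both on the minus strand, with Fxyd7 (chr7:30741936-30750961) between them. Fxyd6 (chr9:45281302-45307457, plus strand) is followed by Fxyd2 at chr9:45310967-45322004. The beta genes are spread over 4 chromosomes: Atp1b1 at chr1:164264678-164285957, Atp1b2 at chr11:69487651-69496851, Atp1b3 at chr9:96214674-96246814 and Atp1b4 at chrX:37405026-37425663. The longest identical stretch between the reference transcript of a member and that of another pump or FXYD gene was 19 bases, between Atp1b1 and Atp1b2. Of the annotated exon bases of Atp1b1, 12.1% are also covered by Nme7 on the opposite strand and 6.0% by Gm32391, and the strand setting of the counting is not given in the sources used here, so some of its reads cannot be told apart from theirs.

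Promoters from RefSeq (250 bases before the start to 50 after it, table build GRCm38.p6) were found for 6 of the 7 members, with a pair of entries for Atp1b3, and were located in GRCm39 by exact match. Those of Fxyd1, Fxyd6 and Atp1b4, the members whose group means lay farthest apart, are shown with E-boxes (CANNTG, a motif bound by basic helix-loop-helix factors such as MyoD) in capitals.
Fxyd1 (chr7:30754229-30754528, minus strand): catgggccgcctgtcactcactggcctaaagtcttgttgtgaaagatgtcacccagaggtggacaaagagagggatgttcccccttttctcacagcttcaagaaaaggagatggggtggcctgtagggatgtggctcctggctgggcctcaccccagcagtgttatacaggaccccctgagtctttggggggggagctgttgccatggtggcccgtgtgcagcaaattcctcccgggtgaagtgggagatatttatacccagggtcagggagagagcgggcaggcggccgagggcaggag
Fxyd6 (chr9:45281233-45281532, plus strand): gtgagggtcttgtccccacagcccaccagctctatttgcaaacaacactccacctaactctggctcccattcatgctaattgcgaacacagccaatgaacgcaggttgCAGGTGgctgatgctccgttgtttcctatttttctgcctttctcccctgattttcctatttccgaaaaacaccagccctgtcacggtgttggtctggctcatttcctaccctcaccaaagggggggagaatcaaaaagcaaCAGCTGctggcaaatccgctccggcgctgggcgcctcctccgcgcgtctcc
Atp1b4 (chrX:37404749-37405048, plus strand): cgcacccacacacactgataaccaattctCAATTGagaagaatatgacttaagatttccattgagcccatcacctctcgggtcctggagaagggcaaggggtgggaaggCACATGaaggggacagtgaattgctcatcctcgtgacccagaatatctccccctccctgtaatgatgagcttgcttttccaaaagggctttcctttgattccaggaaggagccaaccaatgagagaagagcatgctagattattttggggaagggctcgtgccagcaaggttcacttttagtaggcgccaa

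The Fxyd1 window held no E-box, and those of Fxyd6 and Atp1b4 held 2 each. Of 32534 RefSeq promoters of the same length, 72.3% held at least 1. The Fxyd1 window was the only member window with a TATAAA match (on either strand), which 13.6% of all promoters had. This window lies inside the annotated span of Fxyd1, whose outer start on the minus strand is at chr7:30756677, so it describes an inner start of the gene. The promoter of Atp1b1 and both promoters of Atp1b3 were rich in CpG, with 31, 39 and 34 CpG pairs against a median of 7 over all promoters, while Fxyd1, Fxyd5, Fxyd6 and Atp1b4 had 6, 6, 12 and 5.

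The libraries held 38482455 to 59785132 counts, and Myh4, the myosin heavy chain of fast glycolytic fibres, made up 6.80 to 9.61% of them, while Myh7, that of slow fibres, was at 0.0687% or less. Liver transcripts were also present. The mean level of 24 liver genes had its largest gap (0.993 on the log2(CPM + 1) scale, next largest 0.9127) between 8 libraries with more of them and 13 with fewer. The 8 were 5 Active, 2 Activity Reduction and 1 Inactive library, and they were those of the mice with the lowest numbers in the labels. The division thus fell unevenly over the training groups, and each member's group values are also given with the division in the fit or within it.

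The beta subunit and FXYD transcripts of this muscle were each dominated by a single gene. Per kb of the reference transcript, the mean normalized count over the 21 libraries was 11820 for Fxyd1, 5376 for Atp1b2, 2314 for Atp1b1, 1284 for Fxyd6 and 616 for Atp1b3. Fxyd5 (95.5) and Atp1b4 (73.6) were far lower. In this order of levels per kb, the ranges over libraries overlapped between Atp1b1 and Fxyd6 and between Fxyd5 and Atp1b4, while those of Fxyd1 and Atp1b2, Atp1b2 and Atp1b1, Fxyd6 and Atp1b3, and Atp1b3 and Fxyd5 did not overlap. Divided by the length of all annotated exons instead, Atp1b2 (2403) came before Fxyd1 (2172), Atp1b3 (371.5) before Fxyd6 (295.5) and Atp1b4 (43.6) before Fxyd5 (25.5). The order of these neighbours thus depends on the transcript length used.

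**Figure D1:**
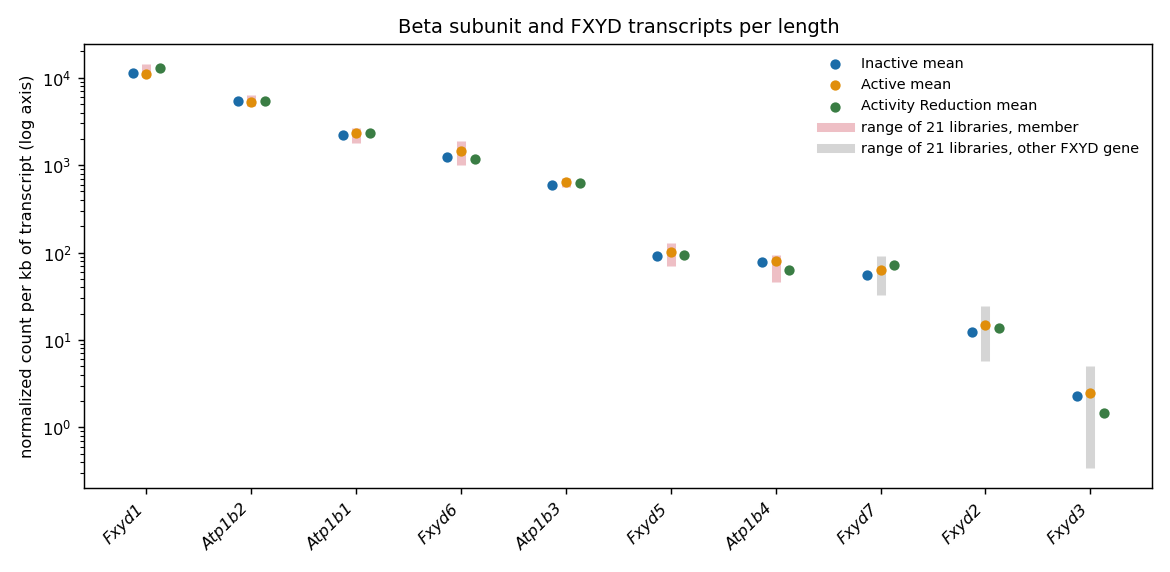
Normalized count per kb of reference transcript (log axis) for the beta subunit and FXYD genes with a count in every library. Points are group means (n = 7), and bars span all 21 libraries (red for the 7 members, grey for other FXYD genes). Fxyd1 stands at the top, and Fxyd5 and Atp1b4 lie below 130 in every library.

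Of the summed level per kb of the 7 FXYD genes, Fxyd1 gave 89.0% ± 0.762 (SD, n = 7) in Inactive, 87.3% ± 1.98 in Active and 90.5% ± 0.578 in Activity Reduction mice. Fxyd6 gave 9.73% ± 0.679, 11.2% ± 1.92 and 8.20% ± 0.571 in the same order. The shares of these FXYD genes are tied, since what Fxyd6 takes the others lose. Among the 4 beta genes, Atp1b2 gave 65.3% ± 2.37, 63.1% ± 2.65 and 64.1% ± 1.60, and Atp1b1 gave 26.7% ± 2.53, 28.3% ± 2.43 and 27.8% ± 1.15. Atp1b3 held 7.13 to 7.61% and Atp1b4 less than 1% on average in each group.

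**Figure D2:**
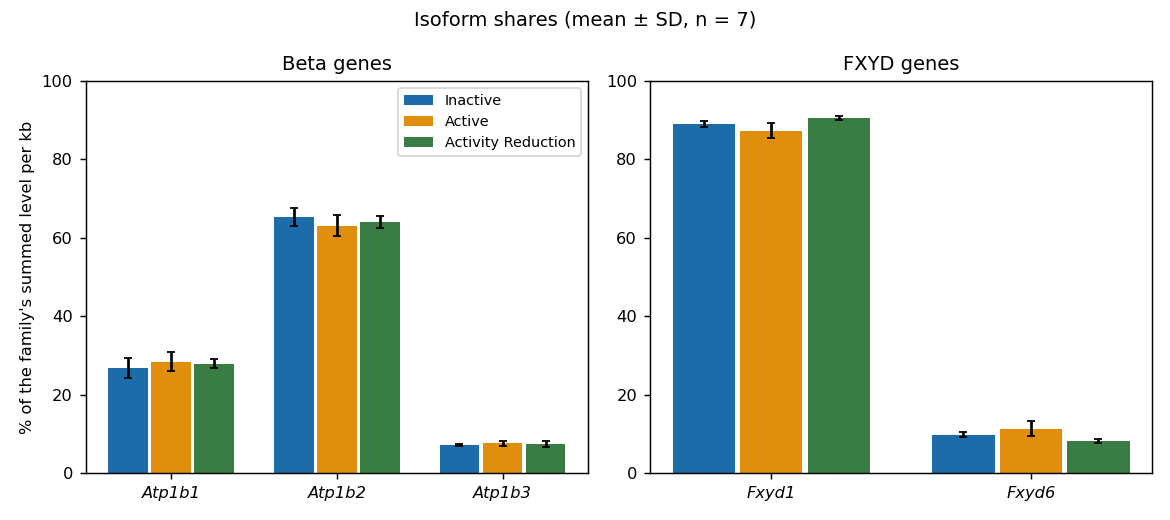
Share of each main gene in its family's summed normalized count per kb, as mean ± SD of 7 libraries per group. Atp1b2 and Fxyd1 lead their families in all 3 groups, and the bars for Fxyd6 run from 8.20% in the Activity Reduction group to 11.2% in the Active group.

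No member passed the main test, edgeR with group alone in the fit, in any group comparison. Among the other fits, only DESeq2 with the library division as a covariate called a member, Fxyd6, as given below. edgeR's quasi-likelihood test over all 16129 genes (called at a Benjamini-Hochberg adjusted p under 0.05 and a log2 fold change beyond 0.25) called 0 of the 7 in Active against Inactive, where it called 0.0% of all genes, 0 of 7 in Activity Reduction against Inactive (0.0124%), and 0 of 7 in Activity Reduction against Active (0.0%). At an unadjusted p under 0.05 there were 1, 2 and 3 members, beside 10.9%, 7.73% and 13.3% of all genes. DESeq2's Wald test in a model of the 3 groups also called 0 members, beside 0.424%, 0.252% and 0.869% of all genes, as did DESeq2 fitted to the 2 groups compared (0.553%, 0.302% and 0.906%). The model of the 3 groups gave an adjusted p to only 6 of the 7 members in Activity Reduction against Inactive. The 3 comparisons share their groups and are not independent of each other. In whole muscle, fewer cells of a type and less RNA per cell cannot be told apart.

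**Figure D3:**
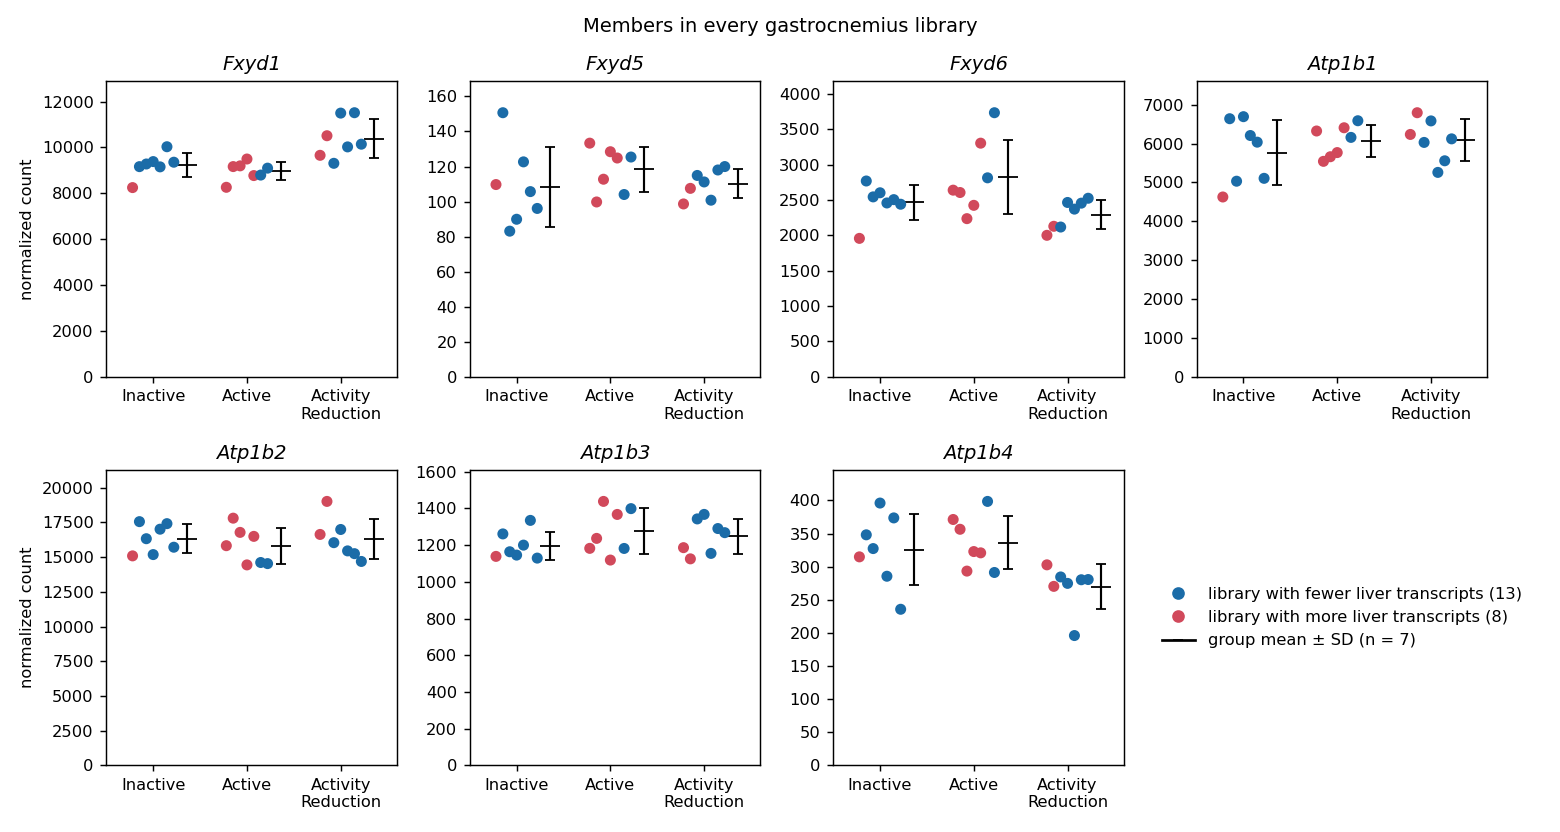
Normalized count of each member in all 21 libraries, from 0, with the group mean ± SD (n = 7) at the right of each column of points. Red points are the 8 libraries with more liver transcripts. The Activity Reduction points for Fxyd1 sit high (9309 to 11516) and those for Atp1b4 low (196 to 303), and the mean of the red points for Fxyd6 is below that of the others in each group, with 1 red Active point at 3304.

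Fxyd1 had the highest values in the Activity Reduction group. Its normalized counts ran from 8250 to 10032 with a median of 9279 in the Inactive group, from 8262 to 9496 with a median of 9098 in the Active group, and from 9309 to 11516 with a median of 10143 in the Activity Reduction group. Of the 7 Activity Reduction libraries, 6 were above every Active library and 4 were above every Inactive library, while the Active and Inactive groups overlapped throughout. The group means were 9231 ± 525 (SD, n = 7), 8970 ± 399 and 10380 ± 858. The log2 fold change of Fxyd1 was 0.21 (SE 0.047, edgeR adjusted p = 0.102) for Activity Reduction against Active, 0.17 (SE 0.047, adjusted p = 0.329) against Inactive, and -0.03 (SE 0.047) for Active against Inactive. DESeq2 gave an adjusted p of 0.00945 for the comparison with the Active group, with the same log2 fold change of 0.21, which is below the 0.25 set for a call.

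The difference in Fxyd1 was of like size with the library division in the fit, at 0.18 (SE 0.051) against Active and 0.18 (SE 0.048) against Inactive. In the 13 libraries with fewer liver transcripts, the 5 Activity Reduction libraries had 10498 ± 975, the 2 Active libraries 8947 ± 213 and the 6 Inactive libraries 9395 ± 326. In the 8 with more, the 2 Activity Reduction libraries had 9657 and 10512, the 5 Active libraries 8262 to 9496 and the single Inactive library 8250. How many of all genes separate in this way in sets this small was not counted for the Activity Reduction group. The mean of Fxyd1 was thus highest in the Activity Reduction group on both sides of the division.

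Fxyd6, whose product phosphohippolin is best known from brain and inner ear, had its highest values in the Active group and its lowest mean in the Activity Reduction group. The Inactive libraries ran from 1957 to 2769 with a median of 2505, the Active libraries from 2236 to 3735 with a median of 2639, and the Activity Reduction libraries from 2000 to 2525 with a median of 2371. All Activity Reduction libraries were below the Active median, and 3 were below every Active library, so the groups overlapped. The log2 fold change of Fxyd6 was 0.20 (SE 0.093, edgeR adjusted p = 0.443) for Active against Inactive, -0.10 (SE 0.093, adjusted p = 0.864) for Activity Reduction against Inactive and -0.30 (SE 0.093, adjusted p = 0.172) for Activity Reduction against Active. Without Active replicate 7, the library with the highest Fxyd6 value, the first of these was 0.12 (SE 0.082, adjusted p = 0.618) and the last -0.22 (SE 0.082, adjusted p = 0.267).

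Fxyd6 was the member whose group values changed most with the library division. With the division in the edgeR fit, its log2 fold change was 0.36 (SE 0.081, adjusted p = 0.291) for Active against Inactive and -0.42 (SE 0.076, adjusted p = 0.102) for Activity Reduction against Active, and 0 members were called, beside 0.0% of all genes in both comparisons and 0.0062% in Activity Reduction against Inactive. DESeq2 with the same covariate called Fxyd6 in both, at adjusted p = 0.0219 and 0.000912, as 1 of 7 members beside 0.133% and 0.378% of all genes, and called 0 members beside 0.276% in Activity Reduction against Inactive. In the 13 libraries with fewer liver transcripts, the 2 Active libraries (2814 and 3735) were above all 6 Inactive (2440 to 2769) and all 5 Activity Reduction libraries (2117 to 2525). In the 8 with more, the 5 Active libraries (2236 to 3304) were above the 2 Activity Reduction libraries (2000 and 2128) and the single Inactive library (1957). The Active values of Fxyd6 were thus above those of the other groups within either side of the division, although they overlapped them over all 21 libraries. Sets this small separate often, as was counted over 12371 genes with a mean normalized count of at least 50. On the side with fewer liver transcripts, the Active values did not overlap the others in 3.11% and were above them in 1.26%. On the side with more, these shares were 4.28% and 2.09%. On both sides, they were 0.21% and 0.0485%. Fxyd1 and Atp1b2 had Active values below all others on the side with fewer but not on the side with more.

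**Figure D4:**
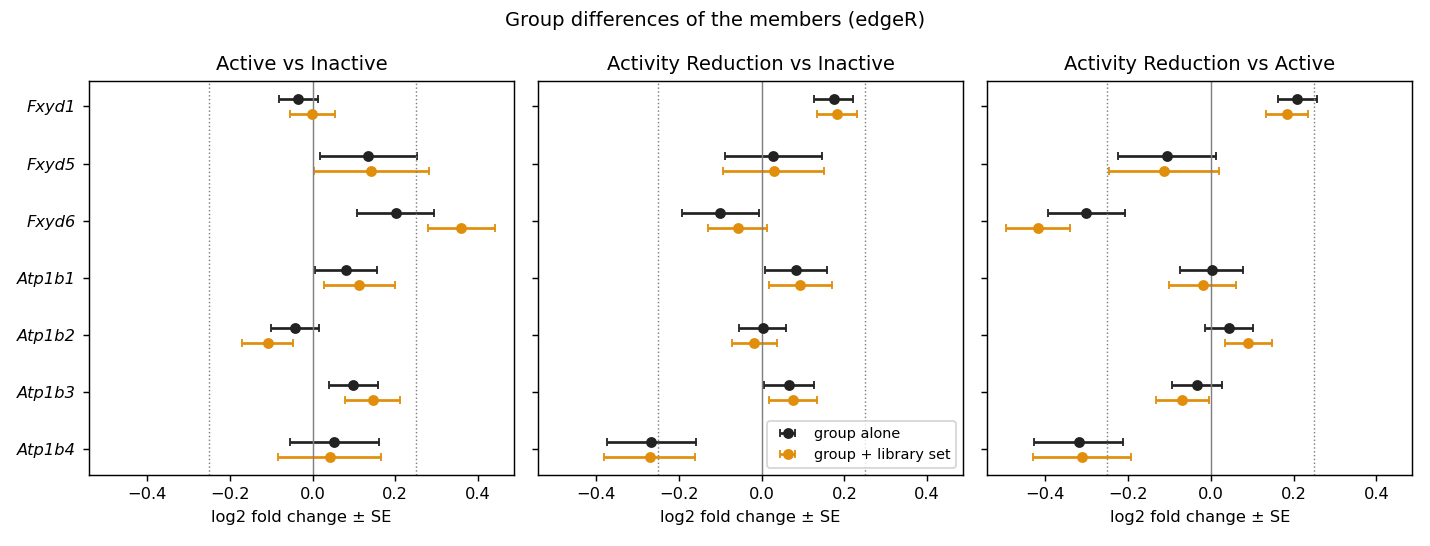
Log2 fold change ± SE of each member in the 3 comparisons from edgeR, with group alone (black) and with the library division added (orange). Dotted lines mark 0.25 on the log2 scale. Fxyd6 moves from 0.20 to 0.36 and from -0.30 to -0.42 when the division is added, while Fxyd1 and Atp1b4 stay close to their first values.

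Markers of other cells and fibre types were measured in the same libraries. Of the macrophage, fibroblast and slow fibre lists, edgeR called 0 genes in each group comparison. DESeq2 called the macrophage marker Folr2 as higher in Active than in Inactive mice, and Csf1r, Folr2 and Lyve1 as lower in Activity Reduction than in Active mice. The summed normalized count of 9 macrophage markers, all of them detected, ran from 1086 to 1727 in the Inactive group, from 1441 to 1982 in the Active group and from 824.5 to 1654 in the Activity Reduction group. That of 7 fibroblast markers, all detected, ran from 7568 to 13340, from 12370 to 18110 and from 8854 to 12580. That of 8 slow fibre genes, all detected, ran from 92570 to 118400, from 47860 to 114600 and from 32760 to 100800. Over the 21 libraries, Fxyd1 had Pearson's r of -0.58 with the mean log2 level of the macrophage list, -0.51 with the fibroblast list and -0.45 with the slow fibre list, and Fxyd6 had 0.44, 0.34 and 0.39. Other lists had values of like size. Fxyd6 had 0.40 with the endothelial list and 0.37 with that of mural (vessel wall) cells, where Fxyd1 had -0.35 and -0.31. Fxyd1 had 0.39 with the fast fibre list, where Fxyd6 had 0.21. The libraries share group, depth and cell makeup, no p is given for these values, and the part of these cells in the differences of Fxyd1 and Fxyd6 was not tested.

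Fxyd5 encodes dysadherin, a protein known to weaken cell adhesion and to be made outside the muscle fibre as well. It was the least counted member, with 75 to 184 raw counts per library. Its normalized counts ran from 83.1 to 151 (median 106) in the Inactive group, from 99.8 to 133 (median 125) in the Active group and from 98.6 to 120 (median 111) in the Activity Reduction group, and the groups overlapped in every comparison. The log2 fold change of Fxyd5 was 0.13 (SE 0.118), 0.03 (SE 0.118) and -0.11 (SE 0.118) for Active against Inactive, Activity Reduction against Inactive and Activity Reduction against Active. Counting error alone gives Fxyd5 a coefficient of variation of 9.50%, of a within-group value of 14.4%. With the library division in the fit, the log2 fold changes of Fxyd5 were 0.14 (SE 0.139), 0.03 (SE 0.122) and -0.11 (SE 0.132).

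Among the beta genes, Atp1b4 had the largest group differences and was lowest in the Activity Reduction group. Its Inactive libraries ran from 236 to 396 with a median of 327, its Active libraries from 291 to 399 with a median of 322.9, and its Activity Reduction libraries from 196 to 303 with a median of 280. Of the 7 Activity Reduction libraries, 6 were below every Active library and all 7 were below the Inactive median, but only 1 was below every Inactive library. The log2 fold change of Atp1b4 was -0.32 (SE 0.108, edgeR adjusted p = 0.200) for Activity Reduction against Active, -0.27 (SE 0.108, adjusted p = 0.552) against Inactive and 0.05 (SE 0.107) for Active against Inactive. With the library division in the fit these were -0.31 (SE 0.118), -0.27 (SE 0.110) and 0.04 (SE 0.124). The direction of Atp1b4 against the Active group was the same on both sides of the division, with means of 263 (n = 5) and 345 (n = 2) in the libraries with fewer liver transcripts and 287 (n = 2) and 333 (n = 5) in those with more.

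Atp1b4 also moved with other markers. Over the 21 libraries its Pearson's r was 0.64 with the mean log2 level of 8 endothelial markers and -0.51 with that of 7 Schwann cell and nerve markers. Of the endothelial markers, edgeR called 0 in each group comparison. DESeq2 in the model of the 3 groups called 1, Kdr, as lower in Activity Reduction than in Active mice. Its log2 fold change was -0.42 (SE 0.102, DESeq2 adjusted p = 0.0102), beside 0.869% of all genes called. The summed endothelial level, with all 8 detected, ran from 9765 to 12360 in the Inactive group, from 10700 to 13110 in the Active group and from 9738 to 10980 in the Activity Reduction group. The Schwann and nerve level, with all 7 detected, ran from 2601 to 8146, from 2702 to 9828 and from 2851 to 4233. Their part in the values of Atp1b4 was not tested.

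Atp1b2, the beta subunit of fast glycolytic fibres, was the most counted member and differed little between the groups with group alone in the fit. Its normalized counts ran from 15087 to 17552 (median 16323) in the Inactive group, from 14437 to 17802 (median 15821) in the Active group and from 14685 to 19008 (median 16038) in the Activity Reduction group. The log2 fold changes of Atp1b2 were -0.04, 0.0019 and 0.04, each with an SE of 0.058. Over 29 alternative fits, that for Active against Inactive ran from -0.178 to -0.0225. It moved by 1 SE or more in 3 of them. In the 13 libraries with fewer liver transcripts, the 2 Active libraries (14530 and 14610) were below all 6 Inactive libraries (15180 to 17552). In the 8 with more, the 5 Active libraries (14437 to 17802) lay on both sides of the Inactive library (15087), so that order was not seen on both sides of the division.

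Atp1b1, the widely expressed beta subunit that is more abundant in slow and oxidative fibres, ran from 4627 to 6694 (median 6038) in the Inactive group, from 5544 to 6589 (median 6161) in the Active group and from 5260 to 6796 (median 6123) in the Activity Reduction group. Its spread was widest in the Inactive group, with an SD of 834 against 406 and 539. The log2 fold changes of Atp1b1 were 0.08, 0.08 and 0.0022, each with an SE of 0.076. They were 0.11 (SE 0.087), 0.09 (SE 0.076) and -0.02 (SE 0.080) with the library division in the fit. In the 13 libraries with fewer liver transcripts alone, Atp1b1 had -0.01 (SE 0.079) for Activity Reduction against Inactive and -0.11 (SE 0.109) against Active, so the direction of both turned. Atp1b3, a beta subunit found in many tissues, ran from 1130 to 1335 (median 1164), from 1119 to 1439 (median 1237) and from 1126 to 1368 (median 1268) in the same order of groups. The log2 fold changes of Atp1b3 were 0.10, 0.07 and -0.03, each with an SE of 0.060, and 0.15 (SE 0.067), 0.08 (SE 0.059) and -0.07 (SE 0.064) with the division in the fit. The groups overlapped for all 3 of Atp1b1, Atp1b2 and Atp1b3 in each comparison.

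Pooled over the 3 groups, the spread between mice exceeded counting error for each member. The within-group coefficient of variation was 6.34% for Fxyd1, 7.89% for Atp1b2, 8.03% for Atp1b3, 10.5% for Atp1b1, 13.3% for Fxyd6, 13.9% for Atp1b4 and 14.4% for Fxyd5. Counting error alone would give 0.788% for Atp1b2, 1.03% for Fxyd1, 1.30% for Atp1b1, 2.00% for Fxyd6 and 9.50% for Fxyd5. By group, Fxyd5 had 21.1% in Inactive, 10.9% in Active and 7.50% in Activity Reduction mice, the last below its counting error.

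Of the 4 other FXYD genes, a list chosen with earlier results known, Fxyd2 and Fxyd7 were tested and 0 were called in each comparison. Fxyd7, known from brain, ran from 25.0 to 69.5 normalized counts over the libraries and Fxyd2, the gamma subunit of the kidney pump, from 6.01 to 25.6. Fxyd3 ran from 0.987 to 14.6 and Fxyd4 from 0 to 7.98 normalized counts, and neither passed the filter. Of the annotated exon bases of Fxyd3, 55.9% are shared with Lgi4 on the other strand, so its few reads cannot be assigned with certainty. The median log2 fold change of the 7 members was 0.08, 0.03 and -0.03 in the 3 comparisons, against 0.0052, 0.0057 and -0.00065 over all genes tested.

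Of 16 genes of other ion transport of the muscle fibre, all tested by edgeR, 1 was called. Kcnj11, the pore subunit of the ATP-sensitive potassium channel, was higher in the Activity Reduction than in the Inactive group, by 0.26 on the log2 scale (SE 0.043, edgeR adjusted p = 0.0355), beside 0.0124% of all genes. With the library division in the fit, none of the 16 was called (Kcnj11 at 0.26, adjusted p = 0.0505). With 1 library left out in turn, edgeR called Kcnj11 in 3 of 21 fits, with log2 fold changes of 0.23 to 0.27 and adjusted p from 0.0156 to 0.140. DESeq2 in the model of the 3 groups tested 15 of the 16 in this comparison and called 2, Kcnj11 at 0.25 (SE 0.046, adjusted p = 0.000122) and Slc8a1 at 0.63 (SE 0.139, adjusted p = 0.00548), beside 0.252% of all genes. Among those next by unadjusted p in edgeR were Slc8a1, the sodium-calcium exchanger, at 0.63 (SE 0.146, adjusted p = 0.199) and Kcna7, a voltage-gated potassium channel, at 0.20 (SE 0.048, adjusted p = 0.226), both for Activity Reduction against Inactive.

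Of 16 regulators of the pump, edgeR tested 14 and called 0. DESeq2 in the model of the 3 groups tested 13 in each group comparison and also called 0. The 4 with the smallest unadjusted p were Thra, a thyroid hormone receptor, at 0.12 (SE 0.044, edgeR adjusted p = 0.506) for Activity Reduction against Inactive, Prkce, a protein kinase C, at -0.13 (SE 0.061, adjusted p = 0.637) in the same comparison, Nkain1, which encodes a protein that binds the beta subunit, at -0.13 (SE 0.064, adjusted p = 0.655) in the same comparison, and Wnk1, a kinase that controls ion transport, at -0.08 (SE 0.044, adjusted p = 0.494) for Active against Inactive.

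The library division itself was a measure that the choice of members did not use, and it was tested with group in the fit. Fxyd6 was lower in the 8 libraries with more liver transcripts, with a log2 difference of -0.28 (SE 0.069, edgeR adjusted p = 0.0125). It was the only member called (1 of 7), beside 4.2% of all genes, and 0.161% of all genes were called in this direction. Within the groups, the Inactive library with more liver transcripts had 1957 against 2440 to 2769 in the other 6. The 5 Active libraries with more had 2236 to 3304 against 2814 and 3735, and the 2 Activity Reduction libraries with more had 2000 and 2128 against 2117 to 2525. The mean was thus lower in the libraries with more liver transcripts in all 3 groups, with overlap in the Active and Activity Reduction groups. The call for Fxyd6 was lost without Inactive replicate 1 (-0.25, adjusted p = 0.0838) and without Active replicate 7 (-0.22, adjusted p = 0.119), and without group in the fit the value was -0.10 (adjusted p = 0.706). DESeq2 also called 1 member over the division (Fxyd6), beside 3.73% of all genes. With the replicate number as a block, edgeR called 0 members over the division (Fxyd6 at -0.28, adjusted p = 0.238), beside 3.32% of all genes, and 0 in Activity Reduction against Inactive, beside 0.0248%.

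The 8 libraries with more liver transcripts had 38482455 to 53767656 counts and the 13 with fewer had 47963641 to 59785132. Their summed level of the 24 liver genes, all detected, was 40810 to 115700 against 8999 to 18450, that of the 8 slow fibre genes 45290 to 112400 against 32760 to 118400, and that of the 7 Schwann and nerve genes 2699 to 5601 against 2601 to 9828. The part of these in the lower Fxyd6 was not tested. The other 6 members were not called over the division: the log2 difference was -0.06 (SE 0.046) for Fxyd1, -0.01 (SE 0.118) for Fxyd5, -0.06 (SE 0.073) for Atp1b1, 0.11 (SE 0.052, adjusted p = 0.378) for Atp1b2, -0.08 (SE 0.057) for Atp1b3 and 0.02 (SE 0.105) for Atp1b4.

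The members did not move as a block over the libraries. Of the 21 pairs, Fxyd5 and Atp1b1 had the highest Pearson's r (0.40, Spearman's rho 0.35), which was 0.19 without the 2 libraries farthest from the median of Fxyd5. Fxyd1 and Atp1b4 had the lowest (-0.42, rho -0.49), which was -0.42 without the 2 libraries farthest from the median of Fxyd1. Fxyd1 and Fxyd6 had -0.18 (rho -0.38), and -0.30 after the mean of each side of the library division was subtracted. Fxyd6 and Atp1b4 had an r of 0.25 and a rho of 0.51. These are descriptions over 21 libraries that share group, depth and cell makeup.

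**Figure D5:**
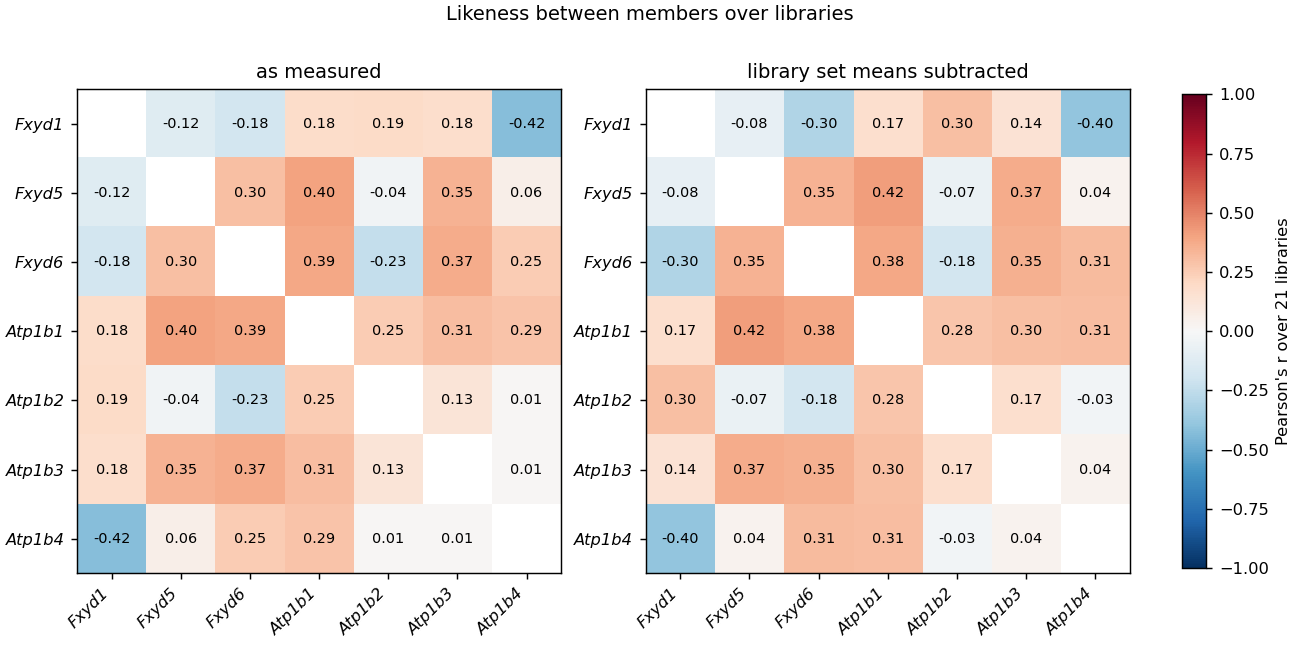
Pearson's r between members over 21 libraries of log2(normalized count + 1), as measured (left) and after subtracting the mean of each side of the library division (right). Values run from -0.42 to 0.40 on the left, and Fxyd1 with Atp1b4 is the lowest pair in both.

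Among 12371 genes with a mean normalized count of at least 50, the genes most like each member were found by r over the 21 libraries after the mean of each side of the division was subtracted. For Fxyd1 these were Fis1 (0.903), Dohh (0.899) and Rps2 (0.883), and for Atp1b2 they were Cacng6 (0.881), Synm (0.880) and Camk2a (0.875). For Fxyd6 they were Ly6e (0.770), Mb (0.758) and Apol6 (0.746), and for Atp1b4 Car8 (0.781), Ets1 (0.763) and Armcx4 (0.734). For Fxyd5 they were Nmi (0.757), Cfl1 (0.712) and Myof (0.697), for Atp1b1 Inpp5j (0.747), Prex1 (0.712) and Gm16118 (0.705), and for Atp1b3 Rbpms (0.718), Sh3glb1 (0.709) and Nbl1 (0.706). Each is the top of a search over all of these genes in 21 libraries, and high values are found in such a search by its size alone. The r of Fxyd6 with Ly6e was 0.277 before the subtraction, so its place rests on it.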

How the data were processed

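Poly(A) RNA of 21 gastrocnemius libraries, 1 per mouse, was measured. According to the submitters' processing notes and methods, the authors used fastp for trimming, STAR for alignment to GRCm39, featureCounts for counts per gene and DESeq2 for testing (versions, annotation and strand setting not given in the sources used here). The deposited values are raw counts per gene. A second deposited table holds the same values and was not used. Normalized counts were counts divided by DESeq2 (version 1.42.0) size factors. The main test was edgeR 4.0.16 (R 4.3.3): TMM, filterByExpr, quasi-likelihood test, 1 model of the 3 groups, adjusted over 16129 genes. On data simulated for Activity Reduction against Inactive over 16078 genes it recovered 23.9%, 61.2% and 81.5% of genes changed 1.25-, 1.5- and 2-fold. The simulated counts held no library division and no other group difference, so these shares need not hold for the real libraries. The members and gene lists were chosen with earlier results of these data known. Named were all members, the other FXYD genes, called genes of the ion transport and regulator lists (or the smallest p up to 4 per list), and the 3 genes most like each member. Some genes of these lists are not reported here. The 63 pairs of libraries of 1 group differed by at least 11.1 times counting error (chi-square per gene), so none was 1 library deposited again; a second preparation from 1 mouse would also exceed counting error. The p-values measure the spread between the mice of this study, and the labels do not say whether these were handled together.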

Additional observations from a re-analysis of the deposited data

Results flagged for a closer look

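In 21 sets of 7 libraries (7 members in 3 groups), the distance of the highest or lowest library from its neighbour was compared with the range of the set, and 2 libraries passed Dixon's 95% critical value. Chance alone passes about 1 in 20 such sets. Fxyd6 in Inactive replicate 1 had 1957 normalized counts, against 2440 to 2769 in the other 6 Inactive libraries. That library is also the Inactive library with more liver transcripts. Atp1b4 in Activity Reduction replicate 5 had 196 normalized counts, against 270 to 303 in the other 6 libraries of its group.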

How the results depend on the processing

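Of 791 member log2 differences under the alternatives, 768 were counted as kept and 50, mostly of values near 0, changed sign. Kept meant a move of less than 1 SE from the main value. For Fxyd6 over the library division, which was called in the main fit, it meant still being called in the same direction. The number of members called stayed at 0 in the 3 group comparisons with RLE normalization, no filter on low counts, DESeq2 with 3 or 2 groups, the libraries with fewer liver transcripts alone and each library left out. The exception was DESeq2 with the library division as a covariate, which called 1 member (Fxyd6) in Active against Inactive and 1 in Activity Reduction against Active. For the library division, 1 member was called with group in the fit and 0 without it. It ranged from 0 to 1 member with 1 library left out, and was 0 without Inactive replicate 1 or Active replicate 7. In 21 pairs of libraries with the same replicate number, the correlation of deviations from the group means ran from -0.224 to 0.616 (median 0.087, 9 pairs over 0.1), so the numbers were not taken to pair the mice. With the replicate block, 0 members were called in each group comparison and 0 over the library division, where Fxyd6 had -0.28 (SE 0.105, adjusted p = 0.238). The block left 536 genes called over the division against 677, and 0, 4 and 0 in Active against Inactive, Activity Reduction against Inactive and Activity Reduction against Active. Over all genes, edgeR called 0, 2 and 0 in these comparisons and DESeq2 57, 23 and 117 (75, 44 and 132 with 2 groups in the model, 38, 79 and 55 with the division). The edgeR call for Kcnj11 was lost with RLE normalization (where 0 genes were called in its comparison), with no filter (adjusted p = 0.0582) and in 18 of 21 fits that left out 1 library. The cause of these changes was not tested. Counts were lowest for Fxyd5, at 75 to 184 raw counts per library.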
